A study of Mus musculus with 3 samples.

Results

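The genes described here encode proteins of the cornified envelope, the crosslinked protein shell that replaces the plasma membrane of keratinocytes in the outermost epidermis. They were chosen by symbol: every probe set annotated to a gene that starts with Sprr or Lce, or to 1 of a set of other envelope proteins, crosslinking enzymes and late differentiation genes. The choice gave 50 probe sets, of which 47 have 1 gene in the annotation, and these 47 represent 38 of the 18193 genes read on the arrays. The other 3 probe sets are assigned to several copies of Sprr2a and are described apart, as probe sets.

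Back skin RNA of 3 groups of male mice was hybridized to Affymetrix Mouse Genome arrays, with 1 array of pooled RNA per group. KOE were interleukin-10 knockout mice given a diet with 8% powdered eggshell membrane (pESM), KO were knockout mice given the AIN-93-based diet without pESM, and WT were C57BL/6J mice given the same diet as KO. The groups held 6 KOE, 7 KO and 5 WT mice, which were 4 weeks old at the start and stayed on the diet for 28 weeks, and their dermal white adipose tissue was removed. Mice of both knockout groups carry the altered Il10 in every cell, descend from a cross of the knockout strain with C57BL/6J and are known for gut inflammation and hair loss, whereas WT mice were C57BL/6J. Because each group was measured once, as a pool, no difference has a replicate check, no p-value is given, and all directions describe these 3 arrays and not the mice within a group. The only probe set of Il10 itself had a signal of 401 in KOE and 679.9 in KO, against 17.0 in WT, so the altered gene was not low in the arrays labelled knockout. Whether this probe set lies inside the altered part of the gene could not be looked up here, so its signal does not check the labels, on which every direction below rests. Hair follicle genes, given with the Sprr genes, were low in both arrays labelled knockout.

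As its envelope forms, a differentiating keratinocyte first lays involucrin and the plakins envoplakin and periplakin under its membrane. Loricrin, small proline-rich (SPRR) and late cornified envelope (LCE) proteins are then crosslinked onto this scaffold by transglutaminases, while filaggrin-type proteins bundle keratin and are later degraded to moisture-binding amino acids. Most of these genes lie side by side in the epidermal differentiation complex, and SPRR genes are well known for being induced when the epidermis is wounded or inflamed. Of the 38 genes, 30 lie on chromosome 3, where the complex is, and the other 8 are Ppl, Evpl, Tgm1, Tgm3, Tgm5, Cdsn, Casp14 and Asprv1.

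Promoters of the genes that the results turn on are shown first, as the 250 bases before the RefSeq start on build GRCm38.p6, read 5′ to 3′ on the strand of the gene. The Sprr1 and Sprr2 promoters below belong to genes with far apart values in the 3 pools, and the Lce1 pair to genes that were higher together in both knockout pools. In the Sprr sequences, capitals mark the AP-1 motif TGANTCA (N is any base), the octamer ATGCAAAT that POU-domain factors bind, and the TATA box TATAAA, each searched on both strands. In the Lce1 sequences, capitals mark the 8-letter words TGTCTCAC and ATAAAAGG, which were picked because they recur among the Lce1 promoters themselves.
Sprr1b: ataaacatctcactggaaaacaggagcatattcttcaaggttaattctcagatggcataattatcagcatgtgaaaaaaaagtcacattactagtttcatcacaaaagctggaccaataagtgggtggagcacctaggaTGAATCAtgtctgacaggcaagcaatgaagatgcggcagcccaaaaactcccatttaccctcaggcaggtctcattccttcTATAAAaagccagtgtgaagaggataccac
Sprr1a: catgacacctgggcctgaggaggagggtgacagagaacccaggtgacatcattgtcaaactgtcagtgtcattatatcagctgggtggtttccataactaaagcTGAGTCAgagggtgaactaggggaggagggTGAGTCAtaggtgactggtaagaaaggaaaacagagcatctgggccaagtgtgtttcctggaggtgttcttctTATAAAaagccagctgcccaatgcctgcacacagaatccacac
Sprr2h: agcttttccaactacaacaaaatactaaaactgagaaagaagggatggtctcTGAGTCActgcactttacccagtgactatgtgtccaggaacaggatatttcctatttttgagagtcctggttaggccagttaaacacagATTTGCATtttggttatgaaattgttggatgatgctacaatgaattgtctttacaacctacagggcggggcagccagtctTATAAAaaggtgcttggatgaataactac
Sprr2k: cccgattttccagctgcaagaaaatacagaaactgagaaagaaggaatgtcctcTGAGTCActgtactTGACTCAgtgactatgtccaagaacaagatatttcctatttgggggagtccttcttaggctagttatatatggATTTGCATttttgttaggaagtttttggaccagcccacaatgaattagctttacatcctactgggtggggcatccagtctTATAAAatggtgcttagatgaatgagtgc
Lce1h: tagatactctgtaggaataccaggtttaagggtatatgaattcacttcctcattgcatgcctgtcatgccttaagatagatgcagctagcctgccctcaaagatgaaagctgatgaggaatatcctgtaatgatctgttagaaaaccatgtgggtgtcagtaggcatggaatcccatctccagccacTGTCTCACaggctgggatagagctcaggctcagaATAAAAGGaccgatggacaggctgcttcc
Lce1i: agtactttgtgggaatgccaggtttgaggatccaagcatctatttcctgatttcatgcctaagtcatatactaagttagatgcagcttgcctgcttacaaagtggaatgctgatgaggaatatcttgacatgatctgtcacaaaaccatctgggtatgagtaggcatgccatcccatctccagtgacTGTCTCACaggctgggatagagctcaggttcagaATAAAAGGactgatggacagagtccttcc
These stretches lie at chr3:92438780-92439029 (minus strand), chr3:92485882-92486131 (minus), chr3:92385435-92385684 (plus), chr3:92432332-92432581 (plus), chr3:92765066-92765315 (minus) and chr3:92778900-92779149 (minus).

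The Sprr and Lce1 families differ in these windows. An AP-1 match lay in 7 of the 8 Sprr promoters and in 0 of 10 Lce1 promoters, against 6.87% of 27025 mouse promoters of the same length. Of these 8, the promoter without one was that of Sprr3. The octamer was found in 5 Sprr promoters, all of Sprr2 genes, and in no Lce1 promoter, against 1.61% of all promoters, and TATAAA was found in 8 of 8 Sprr and 2 of 10 Lce1 promoters, against 13.0%. The KLF core CACCC, searched as well, was in 4 of the 8 Sprr and 3 of the 10 Lce1 promoters, against 51.3% of all. The promoters of Sprr2a1, Sprr2a2 and Sprr2a3 are left out of the 8 Sprr promoters. They were searched too, and no match to any of these motifs was found in them. Only the 250 bases before the RefSeq start were searched. Whether that start is the one used in skin was not tested, so these genes may have such motifs elsewhere. The words ATAAAAGG and TGTCTCAC were each in 8 of 10 Lce1 promoters and in 0 of the 8 Sprr promoters. Over all promoters their shares were 1.12% and 0.714%. ATAAAAGG overlaps TATAAA in the Lce1d and Lce1m promoters. Members of each family are duplicated copies, so the counts are not independent. Their promoters resemble each other to unlike degrees. Those of Lce1h and Lce1i are identical at 82.7% of 248 aligned bases. Those of Lce1h and Lce1l are identical at 60.2% of 216, and those of Sprr1b and Sprr2h at 58.7% of 225. Promoters of unrelated genes were not aligned for comparison. Outside both families AP-1 was matched in Lor, Ivl, Flg and Rptn. A match is a description of the letters and not a site in use. Of the 38 genes, 33 were matched to a promoter, and those of Lce1f, Crct1, Evpl, Ppl and Sprr2j-ps were not used here.

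**Figure D1:**
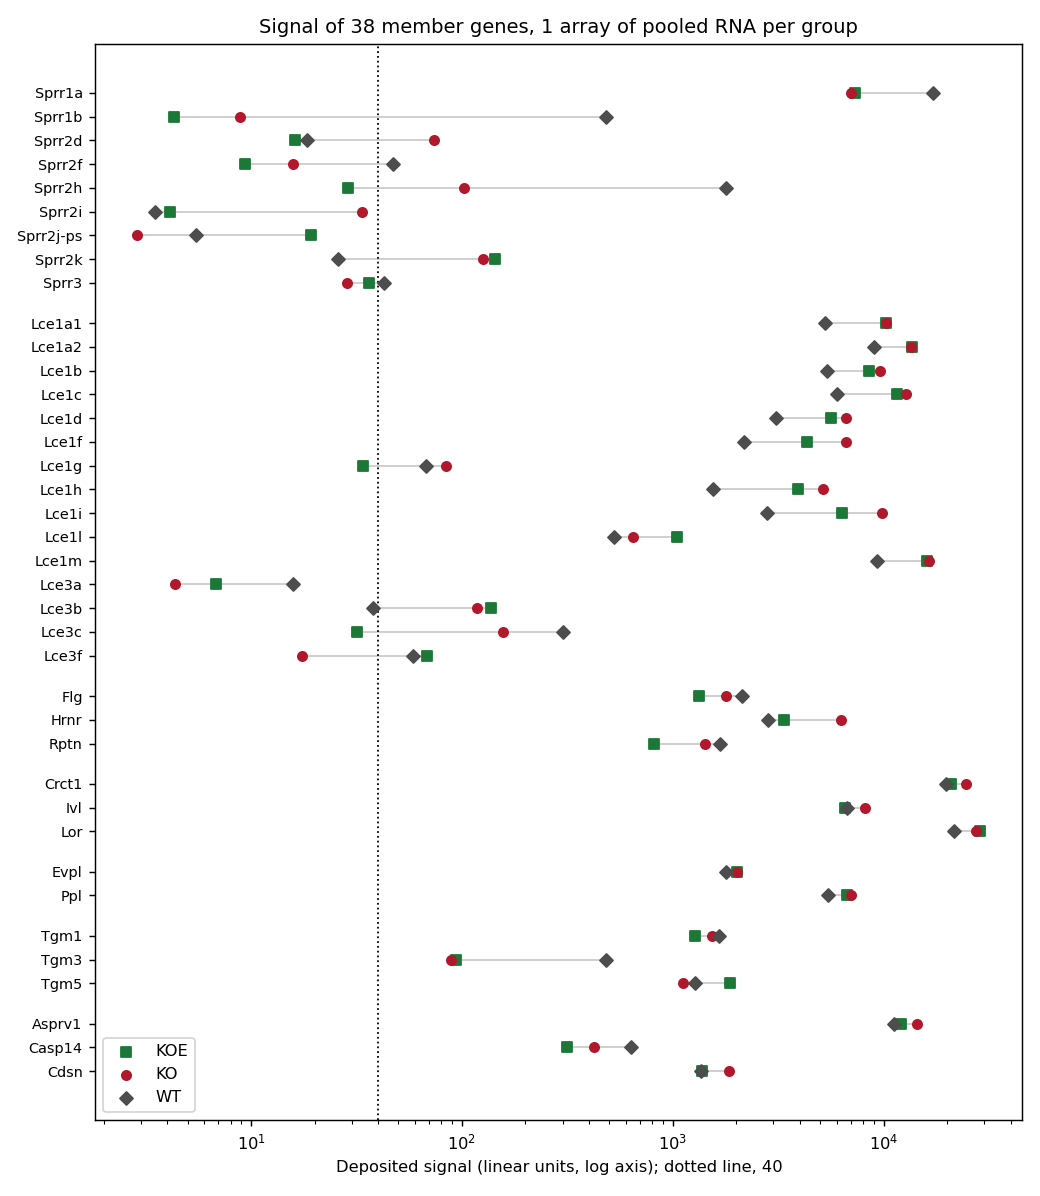
Deposited signal (horizontal, log axis) of each of the 38 member genes in the KOE (square), KO (circle) and WT (diamond) arrays, 1 array of pooled RNA per group, grouped by family from the Sprr genes at the top to Cdsn, Casp14 and Asprv1 at the bottom. Most Lce1 genes lie to the right of WT in both knockout pools, Sprr1b and Sprr2h lie far to the left of it, and Lor, Ivl, Crct1, Evpl and Ppl lie close together in the 3 arrays.

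The values are Affymetrix signal intensities on a linear scale, with a 2% trimmed mean of 500 on each array, and signals of different probe sets are not compared with each other. For a gene with several probe sets, the one whose signal averaged highest over the arrays was used. A gene was counted as past the cut-off where the groups differed by at least 1.5-fold and at least 1 of both arrays reached a signal of 40. The fold and signal limits are those of the methods, which do not say whether 1 array or both must reach 40. Of the 38 genes, 28 reached 40 in KOE, 31 in KO and 32 in WT. Sprr2i, Sprr2j-ps and Lce3a stayed under 40 on every array and were in no count. Different probe sets of 1 gene differed in their log2 fold change of KO vs. WT with an SD of 0.15 at mean signals of 2000 or more, 0.30 at 200 to 2000, and 0.88 under 200, so weak signals carry much more technical spread. The corresponding SDs for KOE vs. KO were 0.13, 0.22 and 0.82. They measure probe set disagreement and not variation among mice.

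The first comparison, KO vs. WT, asks how the skin of untreated knockout mice differed. Of 35 genes that reached 40, 13 were higher and 9 lower past the cut-off, while of all 14495 genes tested 10.9% were higher and 14.5% lower, or 25.4% in either direction. The median log2 fold change of the 35 genes was 0.31, against 0.01 over all genes tested. With signals under 40 set to 40, the median over all 38 genes was 0.30. The 13 higher genes were 9 Lce1 genes, Lce3b, Sprr2d, Sprr2k and Hrnr, and the 9 lower ones were 5 Sprr genes, Lce3c, Lce3f, Tgm3 and Casp14. The plot of fold changes against all genes shows most Lce1 genes above 0 and Sprr genes on both sides of it.

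**Figure D2:**
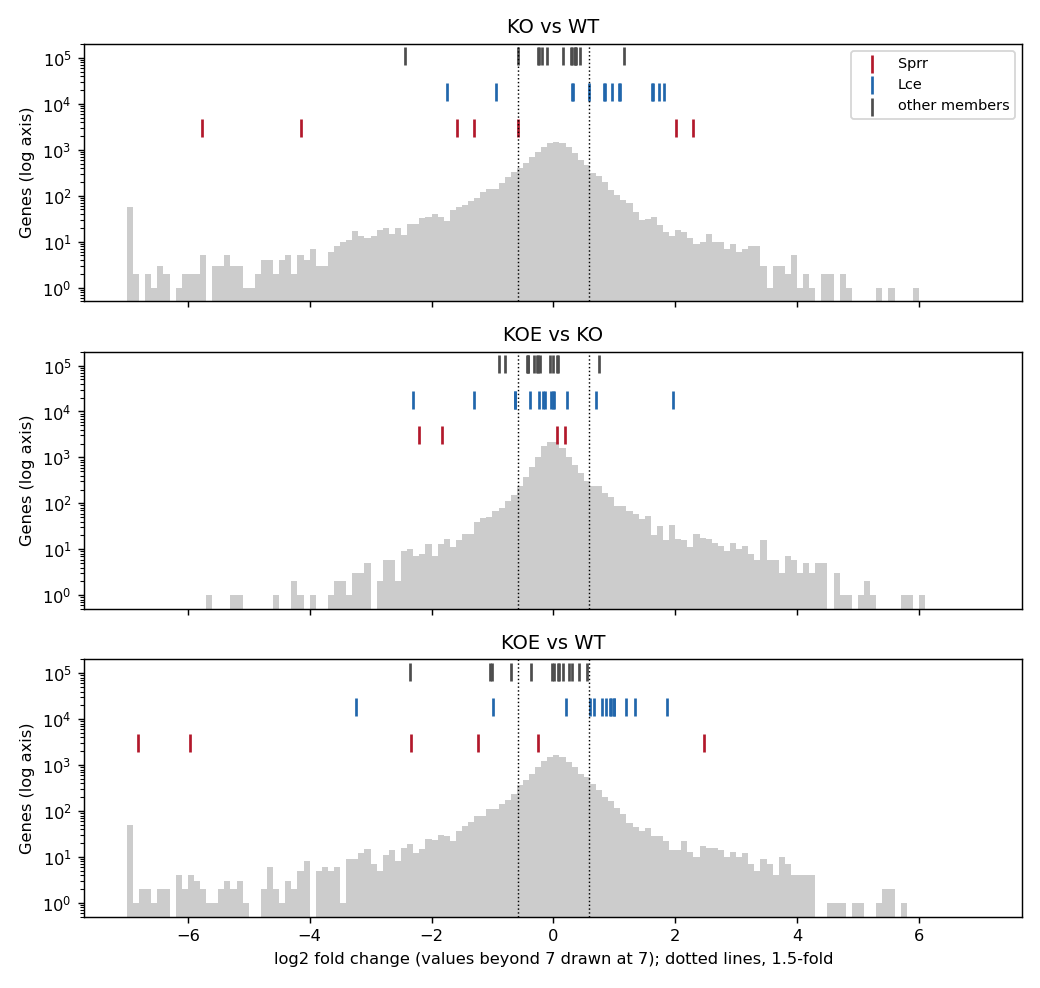
Log2 fold change (horizontal) of all genes tested (grey histogram, number of genes on a log axis) with the members as ticks in rows for Sprr, Lce and other members, in panels for KO vs. WT (top), KOE vs. KO (middle) and KOE vs. WT (bottom). Dotted lines mark 1.5-fold. In KO vs. WT the Lce ticks gather right of the upper line, the Sprr ticks reach −5.76 on the left, and most other members lie between the lines.

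Late cornified envelope genes of the Lce1 cluster, whose small cysteine- and glycine-rich products are added late to the envelope, were mostly higher in both knockout pools. In KO vs. WT, 9 of 11 Lce1 genes passed the cut-off as higher and 0 as lower, against 10.9% and 14.5% of all genes tested. The family median was 0.96 in log2 fold change. Lce1i had a signal of 6361 in KOE and 9874 in KO, against 2790.1 in WT. Lce1h had 3936 in KOE and 5160.2 in KO, against 1548 in WT. Lce1f had 4316 in KOE and 6666 in KO, against 2175 in WT. These 3 genes had the highest ratios of the cluster, and KO was 3.54-, 3.33- and 3.07-fold WT, with KOE between KO and WT in each.

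The genes at the other end of the cluster differed less. Lce1a1 had 10235 in KOE and 10305 in KO, against 5300.1 in WT. Lce1c had 11525 in KOE and 12739.9 in KO, against 6039.5 in WT, and Lce1d had 5650.5 in KOE and 6619.5 in KO, against 3096 in WT. The log2 fold changes of these 3 for KO vs. WT were 0.96, 1.08 and 1.10. Lce1b had 8535 in KOE and 9653 in KO, against 5391 in WT, and Lce1m, which lies apart from the others beyond the Lce3 genes, had 16105 in KOE and 16464 in KO, against 9277 in WT. Lce1a2 had the smallest difference of the 9, with 13643 in KOE and 13543 in KO, against 8977 in WT, and was not past the cut-off for KO vs. WT after quantile or cyclic loess normalization or after scaling on suprabasal keratinocyte genes.

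A pair of Lce1 genes stood apart. Lce1l had 1051 in KOE and 646 in KO, against 526 in WT, so it was past the cut-off only in the comparisons with KOE, where it was 1.63-fold KO and 2.00-fold WT. The difference between KOE and KO was under the cut-off after scaling to a common median. Lce1g had weak signals, 33.8 in KOE and 83.6 in KO, against 67.2 in WT. Its promoter is identical to that of Lce1h at 85.9% of 248 aligned bases, while the log2 fold changes of KO vs. WT were 0.31 for Lce1g and 1.74 for Lce1h. Further probe sets of Lce1f and Lce1a1 ran the same way as those given: the weaker one of Lce1f had 385 in KOE and 741 in KO, against 190.5 in WT, and the other one of Lce1a1 had 9928 in KOE and 10108 in KO, against 4927 in WT.

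The Lce1 copies are alike in sequence, and 4 of the 11 genes (Lce1d, Lce1h, Lce1i and Lce1m) were read from probe sets whose names end in _x_at or _s_at, which can bind transcripts of several copies. How far each signal belongs to 1 copy was not tested. Among the 7 Lce1 genes with another kind of probe set, 5 were past the cut-off as higher in KO vs. WT and 0 as lower. With the arrays scaled to the suprabasal keratinocyte genes instead, 8 of 11 were higher, with a median of 0.85. These genes, taken as the markers of the living upper epidermis (Krt1, Krt10, Krt2, Dsg1a, Dsc1, Krtdap and Sbsn), had a summed signal of 134616 in KOE and 130435 in KO, against 109462 in WT, and in KO vs. WT none of the 7 was higher past the cut-off and 1, Krt2, was lower. All 7 reached 40 on every array. Markers of some other tissues differed in KO vs. WT as well. Of those tested, 5 of 6 skeletal muscle, 3 of 3 adipocyte, 5 of 5 melanocyte and 3 of 4 simple or oral epithelium genes were lower. Over all genes tested 14.5% were lower. Of 5 fibroblast genes 1, Col1a1, was lower, and 0 of 3 sebocyte, 5 macrophage and 4 T cell genes passed the cut-off. The melanocyte genes had a summed signal of 1785 in KOE and 914 in KO, against 13690.4 in WT. Of 5 basal keratinocyte markers 2, Col17a1 and Itgb4, were higher in KO vs. WT, against 10.9% of all genes tested. The 5 had a summed signal of 89971 in KOE and 87359.7 in KO, against 72339.7 in WT. The part of these cell types in the Lce1 and Sprr values was not tested. In a sample of whole skin, more cells of a type and more RNA per cell cannot be told apart.

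**Figure D3:**
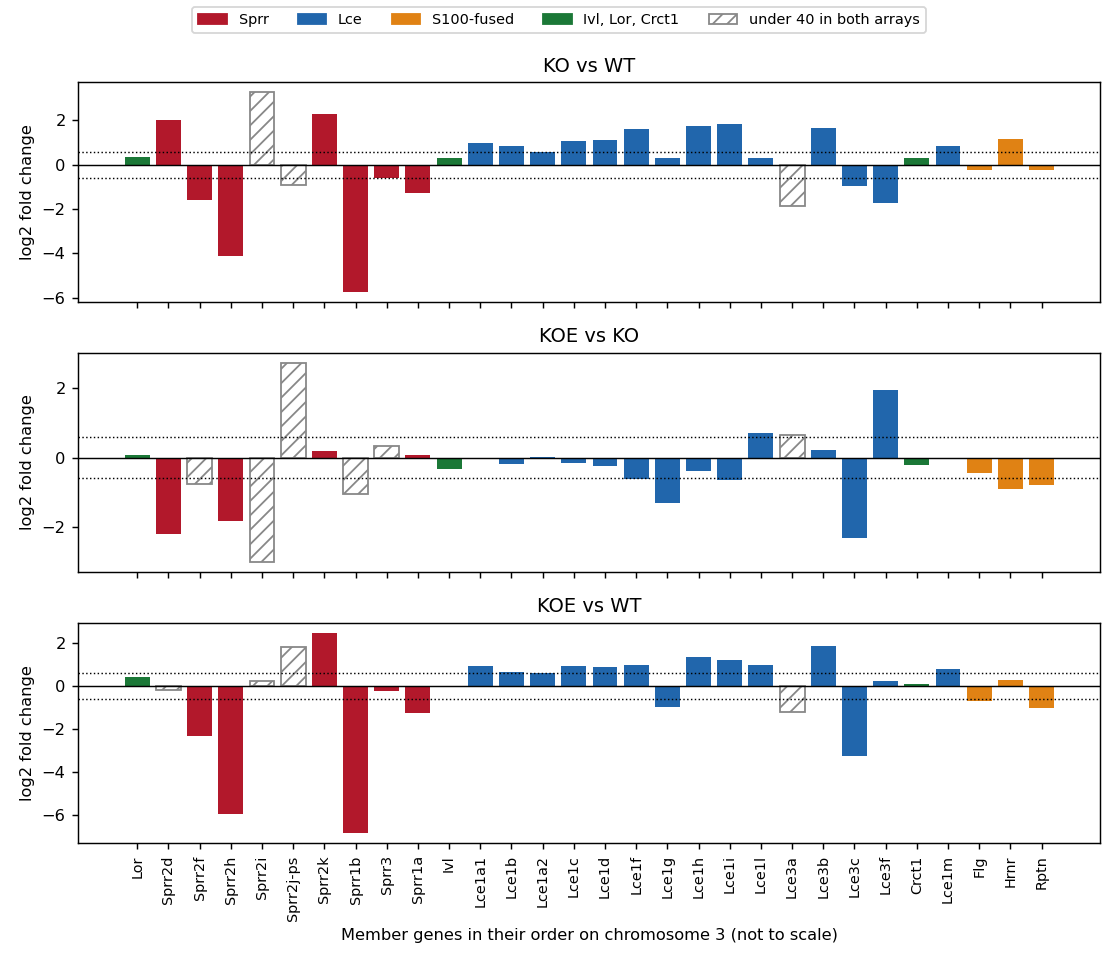
Log2 fold change (vertical) of the 30 members on chromosome 3 in their order along the chromosome (horizontal, not to scale), in panels for KO vs. WT (top), KOE vs. KO (middle) and KOE vs. WT (bottom), coloured by family. Hatched bars are genes under 40 in both arrays and dotted lines mark 1.5-fold. In KO vs. WT the block from Lce1a1 to Lce1l lies above 0 and is highest at Lce1h and Lce1i, next to a Sprr block with bars on both sides.

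The 4 Lce3 genes, of which the human relatives are known as wound and psoriasis-associated genes, had weak signals and no common direction. Lce3c had 31.8 in KOE and 157 in KO, against 302 in WT. Lce3b had 138 in KOE and 117 in KO, against 37.8 in WT, the reverse order of the groups. Lce3f had 68.0 in KOE and 17.5 in KO, against 58.6 in WT, and Lce3a was under 40 throughout, at 6.84 in KOE and 4.38 in KO, against 15.8 in WT. With signals under 40 set to 40, Lce3f was no longer past the cut-off for KO vs. WT. Lce3b and Lce3c were read from probe sets ending in _x_at, which can bind transcripts of several copies. Signals under 200 had the widest probe set spread, so these differences are less certain than those of Lce1.

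Small proline-rich genes, whose products bridge other envelope proteins as crosslinked spacers, split by gene. Sprr1a, Sprr1b and Sprr2h were lower in both knockout pools, and Sprr2k, at weak signals, was higher. Of 9 Sprr genes, 7 reached 40 in KO or WT, of which 2 were higher and 5 lower in KO vs. WT. Over all genes tested the shares were 10.9% and 14.5%. Sprr1b had 4.29 in KOE and 8.87 in KO, against 482 in WT. Both knockout signals lie under 40, and with them set to 40 the gene was at least 12.0-fold lower in KO than in WT. Sprr2h had 28.8 in KOE and 102 in KO, against 1798 in WT. It was thus 17.7-fold lower in KO and at least 44.9-fold lower in KOE than in WT. The Sprr2h probe set has a name ending in _s_at and can bind transcripts of several copies.

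Sprr1a, a close relative of Sprr1b that is best known as a marker of stressed and regenerating epithelium, had 7311 in KOE and 7000.0 in KO, against 17227 in WT. It was 2.46-fold lower in KO than in WT and nearly equal in both knockout pools, with a log2 fold change of 0.06 for KOE vs. KO. The promoters of the pair, both with an AP-1 match, are identical at 62.6% of 227 aligned bases. Sprr2k lay in the opposite direction, with 144 in KOE and 126 in KO, against 25.9 in WT, although its promoter is identical to that of Sprr2h at 81.9% of 248 aligned bases, with the octamer at the same distance of 109 bases before the start in both. The Sprr2k signals were all under 200, where probe set spread is widest, and that of WT was under 40. Sprr2k was thus not counted where both arrays had to reach 40.

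The remaining Sprr signals were near the limit of 40. Sprr2d had 16.1 in KOE and 74.0 in KO, against 18.4 in WT. Sprr2f had 9.34 in KOE and 15.7 in KO, against 47.1 in WT, and Sprr3, a gene of oral and esophageal epithelium, had 36.1 in KOE and 28.5 in KO, against 42.9 in WT. Sprr2i had 4.12 in KOE and 33.5 in KO, against 3.49 in WT, and Sprr2j-ps, a pseudogene, had 19.3 in KOE and 2.89 in KO, against 5.51 in WT. With signals under 40 set to 40, Sprr2f and Sprr3 were no longer past the cut-off for KO vs. WT, and 3 of 7 Sprr genes stayed lower.

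Probe sets shared by the Sprr2a copies gave another order of the groups. The probe set assigned to Sprr2a1 and Sprr2a2 had 1782 in KOE and 224 in KO, against 940.0 in WT. That assigned to Sprr2a1, Sprr2a2 and Sprr2a3 had 1962 in KOE and 271 in KO, against 995 in WT. Both were lower in KO and higher in KOE than in WT, with log2 fold changes for KOE vs. KO of 2.99 and 2.86. The third, with 40.7 in KOE and 17.1 in KO, against 28.5 in WT, was weak but ran the same way. The Sprr2a1 and Sprr2a2 promoters are identical over 250 bases, and which copy gave the signal cannot be told apart.

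Hair follicle genes were lower in the same pools as Sprr1b and Sprr2h. In KO vs. WT, all 13 measured genes of the inner root sheath and hair shaft passed the cut-off as lower, against 14.5% of all genes tested. Their summed signal was 776 in KOE and 1002 in KO, against 187921 in WT. None was at 0, but 4 of the 13 reached 40 in KOE and 9 did in KO, against 13 in WT. Stress keratins gave no common direction: Krt16 had 774 in KOE and 653 in KO, against 1443 in WT, while Krt6b had 102 in KOE and 231 in KO, against 31.4 in WT. The part of hair follicle cells in the Sprr values was not tested.

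Scaffold and bulk proteins of the envelope differed little. Lor, which encodes loricrin, the main protein of the envelope by mass, had 28758 in KOE and 27455 in KO, against 21527 in WT. Ivl, which encodes involucrin, had 6559 in KOE and 8196 in KO, against 6679.8 in WT, and Crct1, a small cysteine-rich gene of the complex, had 20987 in KOE and 24475 in KO, against 19857 in WT. None of the 3 was past the cut-off in any comparison, and in KO vs. WT their log2 fold changes lay between 0.30 and 0.35. The plakins Evpl and Ppl, which link the envelope to keratin filaments, were as close, with 2015 in KOE and 2018 in KO, against 1799 in WT for Evpl and 6720.4 in KOE and 7020.3 in KO, against 5462 in WT for Ppl. A weak probe set of Lor differed in sign for KO vs. WT, with 318 in KOE and 281 in KO, against 316 in WT. After scaling to a common median Lor and Ppl were past the cut-off in KO vs. WT. The median of the Lce1 genes exceeded that of the 14 members outside the Sprr and Lce families by 0.73 in log2 fold change of KO vs. WT, and by 0.89 in KOE vs. WT, differences that a common scaling factor does not alter.

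The S100-fused genes, large proteins with an S100 domain and long repeats, split between the pools. Hrnr, which encodes hornerin, a filaggrin-like protein, had 3372 in KOE and 6257 in KO, against 2815 in WT, and was 2.22-fold higher in KO than in WT. Flg, which encodes filaggrin, had 1326 in KOE and 1795 in KO, against 2139 in WT. Rptn, which encodes repetin, had 819 in KOE and 1426 in KO, against 1678 in WT at its strongest probe set. Flg and Rptn were not past the cut-off in KO vs. WT, but both were lower in KOE than in WT, with log2 fold changes of −0.69 and −1.03. After scaling to a common median Flg was past the cut-off in KOE vs. KO and no longer in KOE vs. WT. The other probe sets of Rptn were at or under 54.6 on all arrays. They differed in sign for KO vs. WT, with log2 fold changes of 0.60 and 0.58, against −0.23 at the strongest. With the mean of its probe sets Rptn was not past the cut-off in either comparison with KOE.

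Of the transglutaminases, which form the crosslinks, Tgm1 was nearly even and Tgm3 was not. Tgm1, the membrane-bound enzyme of the envelope, had 1279 in KOE and 1531 in KO, against 1652 in WT. Tgm3, an enzyme of both epidermis and hair follicle, had 93.9 in KOE and 88.6 in KO, against 481 in WT, and was 5.43-fold lower in KO than in WT. Its second probe set had 8.36 in KOE and 35.6 in KO, against 129 in WT. Tgm5 had 1867 in KOE and 1115 in KO, against 1269.9 in WT, with a KOE signal 1.67 times that of KO, a difference under the cut-off after scaling to a common median. Tchh, the hair protein trichohyalin that Tgm3 crosslinks, had 278 in KOE and 279 in KO, against 24309 in WT, and the part of hair follicle cells in the Tgm3 values was not tested.

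Among the late differentiation genes, Casp14, the caspase that takes part in filaggrin breakdown, had 315 in KOE and 422 in KO, against 635 in WT. Its KO vs. WT difference, of −0.59 in log2, was not past the cut-off after scaling to a common median or after quantile or cyclic loess normalization, and its weaker probe set differed in sign, with 111 in KOE and 147 in KO, against 131 in WT. Asprv1, the protease that cuts profilaggrin, had 12041 in KOE and 14459 in KO, against 11237 in WT. Cdsn, which encodes corneodesmosin, the adhesive protein of corneocyte junctions, had 1378 in KOE and 1840.2 in KO, against 1366 in WT. Both were highest in KO, with no difference past the cut-off as deposited. After scaling to a common median both were past it in KO vs. WT.

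The comparison that bears on pESM was KOE vs. KO. Of 32 genes that reached 40, 3 were higher and 8 lower past the cut-off, while of all 14594 genes tested 10.9% were higher and 5.33% lower, or 16.2% in either direction. The median log2 fold change was −0.23, against 0.02 over all genes tested, and −0.10 over all 38 genes with signals under 40 set to 40. Higher were Lce1l, Lce3f and Tgm5, and lower were Lce1f, Lce1g, Lce1i, Lce3c, Sprr2d, Sprr2h, Hrnr and Rptn. For 4 of these 8 (Lce1g, Lce3c, Sprr2d and Sprr2h) the KOE signal was under 40, so that the ratio rests on a weak value. The 3 probe sets shared by Sprr2a copies are outside these counts and medians, and all were higher in KOE than in KO. Their log2 fold changes were 2.99, 2.86 and, at weak signals, 1.25. Hrnr was 1.86-fold lower in KOE than in KO, Rptn 1.74-fold, Lce1i 1.55-fold and Lce1f 1.54-fold. Of the scaffold and bulk genes, Lor was at 0.07, Ppl at −0.06 and Evpl at −0.002 in log2 fold change. Crct1 was at −0.22 and Ivl at −0.32. The weaker probe set of Ivl, with 1243 in KOE and 1826 in KO, was at −0.56, just under the cut-off. Markers of deeper tissue differed between the same pools: all 6 skeletal muscle genes and all 3 measured adipocyte genes were higher in KOE vs. KO, with summed signals of 30007 in KOE and 7389.8 in KO, against 20399.8 in WT for muscle and 10834 in KOE and 5030.3 in KO, against 17684 in WT for adipocytes. Of the 5 melanocyte genes 4 were higher in KOE vs. KO. The part of these tissues in the member values was not tested.

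In KOE vs. WT the Lce1 genes were again mostly higher. Of 34 genes that reached 40, 12 were higher and 10 lower in KOE vs. WT, while of all 14784 genes tested 12.4% were higher and 10.4% lower, or 22.8% in either direction. The higher ones were Sprr2k, Lce3b and the 10 Lce1 genes other than Lce1g, and the median of the 11 Lce1 genes was 0.93. After scaling on suprabasal keratinocyte genes 7 of the 11 were higher, with a median of 0.72. Lower were Sprr1a, Sprr1b, Sprr2f, Sprr2h, Lce1g, Lce3c, Flg, Rptn, Tgm3 and Casp14. The KO array enters KO vs. WT and KOE vs. KO, and the WT array enters both comparisons with WT, so these comparisons share their noise. Of the 25 members with at least 40 on every array, 14 had KO highest, WT lowest and KOE between them. Of the 12887 genes with such signals, 23.1% had this order. The 14 include near ties of KOE and KO, with log2 fold changes of −0.002 for Evpl and −0.010 for Lce1a1. Such values lie within the probe set SD of 0.13 at signals of 2000 or more. Most Lce1 genes are among the 14, and some of their probe sets can bind transcripts of several copies.

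Regulators and processing enzymes of cornification were read from lists of known genes. Of 19 measured regulators, 1 was higher and 1 lower in KO vs. WT, and 0 were past the cut-off in KOE vs. KO. The shares over all genes, given above, were 10.9% higher and 14.5% lower in KO vs. WT, and those of the regulators were 5.26% each. In KOE vs. KO, 16.2% of all genes tested were past the cut-off in either direction. Satb1, a chromatin organizer of the complex, had 778 in KOE and 741 in KO, against 330.5 in WT. Maf, which drives late differentiation, had 2733 in KOE and 2364 in KO, against 3853 in WT. Klf4, a factor needed for the skin barrier, had 16322 in KOE and 16078 in KO, against 10775 in WT, and was past the cut-off only in KOE vs. WT, with a log2 fold change of 0.60. Its KO vs. WT value was 0.58, or 1.49-fold, just under the cut-off, and its KOE vs. KO value was 0.02.

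Of 18 proteases, deiminases and inhibitors of the cornified layer, 3 (16.7%) were higher and 5 (27.8%) lower in KO vs. WT. Over all genes tested the shares were 10.9% and 14.5%. Spink5, an inhibitor of the kallikreins that shed corneocytes, had 11910.4 in KOE and 14576 in KO, against 7617 in WT, and its target Klk5 had 4374 in KOE and 4567 in KO, against 2843 in WT. Padi1 and Padi3, deiminases that act on filaggrin and trichohyalin, were among the lower ones. Padi1 had 19.2 in KOE and 27.0 in KO, against 1406 in WT, and Padi3, which is in the hair follicle list as well, had 14.4 in KOE and 21.0 in KO, against 6189 in WT. Of 25 other late differentiation genes, 3 (Krt78, Kprp and Alox12b) were higher and 4 (Krt2, Lelp1, Tchh and Tchhl1) lower in KO vs. WT, with 0 past the cut-off in KOE vs. KO. These shares, 12.0% higher and 16.0% lower in KO vs. WT, are near those over all genes. In KOE vs. KO the share over all genes was 16.2% in either direction. Kprp, a proline-rich gene of the same complex, had 6641 in KOE and 7439 in KO, against 4089.5 in WT, the same order as most Lce1 genes.

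**Figure D4:**
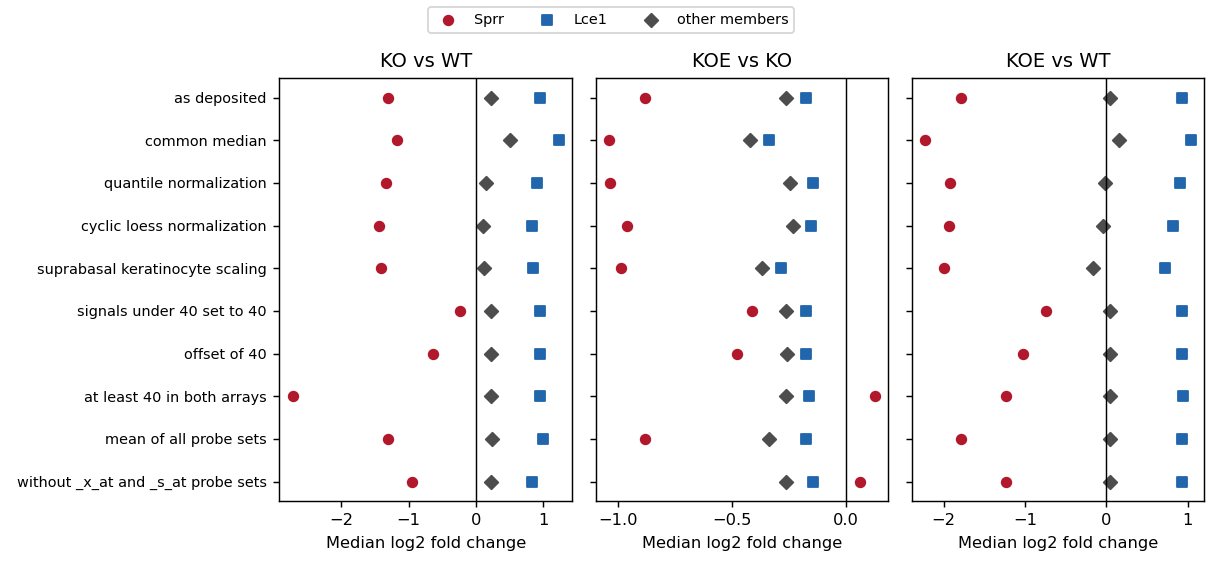
Median log2 fold change (horizontal) of the Sprr genes (circle), Lce1 genes (square) and other members outside the Sprr and Lce families (diamond) under each way of scaling, flooring or reading the signals (vertical), in panels for KO vs. WT (left), KOE vs. KO (middle) and KOE vs. WT (right). The Lce1 median stays between 0.83 and 1.23 in KO vs. WT, while the Sprr median, over 1 to 7 genes, moves most with the treatment of weak signals, and in KOE vs. KO it turns to 0.13 where both arrays must reach 40, and to 0.06 without _x_at and _s_at probe sets.

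The counts of the Lce1 and Sprr genes moved little with the scaling. In KO vs. WT, 8 or 9 of the 11 Lce1 genes passed the cut-off as higher and 0 as lower after scaling to a common median, after quantile or cyclic loess normalization, and after scaling on suprabasal keratinocyte genes. The Sprr genes counted as lower were 4 or 5 and those higher 2. Of the 22 members past the cut-off in KO vs. WT, 19 stayed past it in the same direction under each of the 4 scalings, all but Casp14, Lce1a2 and Sprr3. The split of higher and lower members depended on the scaling more than the families did: it was 13 and 9 as deposited and 17 and 7 after scaling to a common median in KO vs. WT, and 3 and 8 against 1 and 9 in KOE vs. KO.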

How the data were processed

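The authors pooled the RNA of each group, hybridized 250 ng of it to 1 array and deposited signal intensities on a linear scale, which their methods trace to R and the Affymetrix Microarray Analysis Suite 5. No genome build is given in the sources used here. Of the 45101 probe sets, 64 control probe sets were left out. Gene names came from the annotation of the platform, with symbols updated by gene identifier: 34945 have 1 gene, 932 several and 9160 none in the annotation used here. All 38 member genes were matched to RefSeq by gene identifier. The limit of 40 and the 1.5-fold cut-off come from the methods. No test could be made with 1 array per group, and the number of arrays limits the precision. Every member may be named, and from the other lists those past the cut-off or strongest were eligible. Members, lists and rules were chosen with earlier results of these data known. Alternatives changed the scaling, the treatment of weak signals, the fold limit and the probe set read (the loess span was 0.7, with 3 iterations). Python 3.11.15, numpy 2.4.6, pandas 2.3.3, R 4.3.3 and limma 3.58.1 were used.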

Additional observations from a re-analysis of the deposited data

How the results depend on the processing

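No paired analysis was possible because each group has 1 array. Counts of members past the cut-off stayed within 1.5 times the reported ones in all settings, with 3 exceptions. With at least 40 required in both arrays, 6 genes were past the cut-off in KOE vs. KO, against 11. With a 2-fold limit, 5 were in KOE vs. KO and 12 in KOE vs. WT, against 11 and 22. Both are smaller by construction. Most Lce1 differences from WT were modest. At 2-fold, 5 of 11 Lce1 genes were higher in KO vs. WT and 2 of 11 in KOE vs. WT, against 9 and 10 at 1.5-fold. Of all genes tested, 4.27% and 4.84% were 2-fold higher in these comparisons. No called gene changed sign under any setting run. Over the settings, the median log2 fold change of the members ran between 0.21 and 0.60 in KO vs. WT, −0.38 and −0.18 in KOE vs. KO, and −0.03 and 0.32 in KOE vs. WT, where its sign turned with 1 scaling. Scaling to a common median raised the median log2 fold change of all genes tested to 0.29 in KO vs. WT and to 0.16 in KOE vs. WT, and brought it to −0.14 in KOE vs. KO; scaling on suprabasal keratinocyte genes, chosen after the data were seen, brought it to −0.17 in KOE vs. WT, where the member median was −0.03. Weak signals, under 200, limit most Sprr2 and Lce3 values.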
